A study of Rattus norvegicus with 24 samples.

Results

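The genes described here encode the elastic fiber and its microfibril scaffold: Eln, Fbn1, Fbln5, Efemp2, Mfap2, Mfap4, Mfap5, Ltbp2, Lox and Loxl1. They were chosen by name, and the members are the probes that the array annotation assigns to these symbols. Of the 10 genes, 9 had a probe, out of 13337 named genes on the array, and Loxl1 had 2 probes, so that 10 of 22523 probes belong to the group. Efemp2, a fibulin that binds elastin and lysyl oxidase, had no probe under its symbol or gene identifier, so its signal was not analysed here.

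The animals were 12 female Sprague-Dawley rats, labelled as 3 months of age, whose left ventricles were taken 4 weeks after surgery and sampled away from the infarct. The 4 Sham rats had a loose suture placed around the left anterior descending coronary artery and a placebo pellet. The 4 MI rats had that artery ligated and also carried a placebo pellet, and the 4 MI+T4 rats had the ligation and a subcutaneous pellet of 3.3 mg thyroxine (T4) with a release time of 60 days. The piece used for RNA was the basal slice of the ventricle, a single tissue sample per rat, and each RNA was hybridized to 2 Illumina RatRef-12 arrays.

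Elastic fibers give tissues their recoil. A core of cross-linked elastin is laid down on a sheath of microfibrils, which are built mainly from fibrillin. Fibulins and microfibril-associated proteins guide elastin onto this scaffold, lysyl oxidases cross-link it, and the microfibrils also bind the latent complexes in which TGF-beta is stored. In the heart the fibers are found in vessel walls, valves, the endocardium and the interstitium, and the cells that make them there include fibroblasts and smooth muscle cells.

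Signals are on a scale close to log2, on which the array medians lay between 7.81 and 7.82. A fold is 2 raised to the difference between group means. Values of a rat are the mean of its 2 arrays, and errors of a group are SDs over 4 rats. Of the 9 genes, 8 had mean signals between percentiles 85.8 and 93.2 of all probes, and Mfap2 stood at percentile 68.2. Changes were called by limma at an adjusted p under 0.05 over all 22523 probes, with both arrays of each rat in the fit. That fit sets the correlation within a rat to 0.243 for every probe, while the correlation estimated for the 9 genes themselves had a median of 0.975. A fit on 1 mean per rat gave larger SEs for all 9 genes, with 0.39 against 0.27 for Eln between MI and Sham. The p-values with both arrays are therefore too small for these genes. The adjusted p on rat means is given beside the calls, as a range for groups of genes. On rat means limma called 0 of all probes between MI and Sham, 0 between MI+T4 and MI and 1 (0.00444%) between MI+T4 and Sham.

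Most of the elastic fiber genes were higher after MI. With both arrays in the fit, Eln, Fbn1, Mfap4, Mfap5, Lox and Loxl1 rose, none fell, and Fbln5, Ltbp2 and Mfap2 did not pass. These 6 of 9 genes compare with 1.89% of all probes called higher and 1.72% called lower. All 9 had a higher mean in MI, as 47.2% of all probes did. The median difference over the 9 genes was 0.94 on the log2 scale, against -0.0044 over all probes. On rat means 0 of 9 passed, with adjusted p from 0.211 for Mfap5 to 0.934 for Mfap2, and 7 of 9 had an unadjusted p under 0.05 there, where 5.22% of all probes had one in the upward direction. In 3 of the 9 genes, Eln, Mfap4 and Mfap5, each MI rat lay above each Sham rat, compared with 2.63% of all probes.

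**Figure D1:**
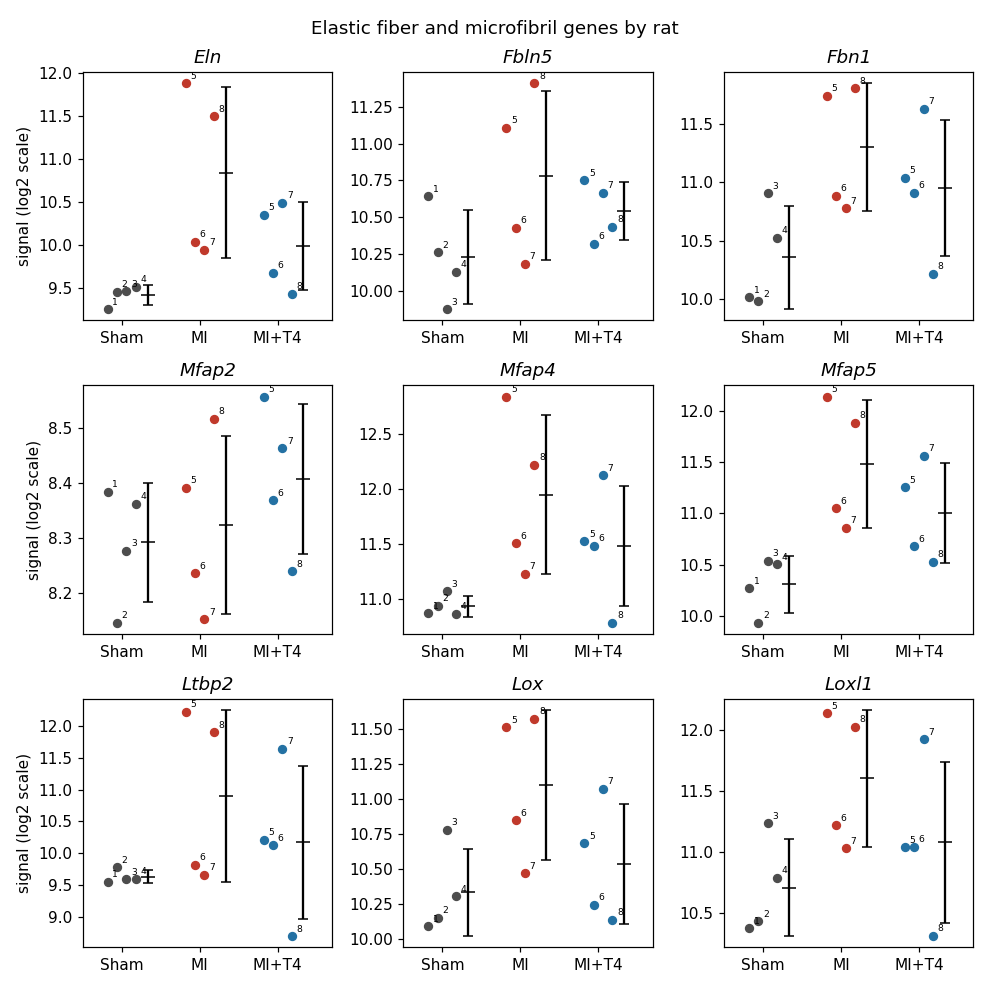
Signal of each gene (log2 scale, vertical axes of different range) in each rat, given by its replicate number, for Sham, MI and MI+T4. The bar beside each group shows the mean and SD of 4 rats. MI replicates 5 and 8 are the highest MI rats in all 9 panels, and the MI rats of Eln, Mfap4 and Mfap5 do not overlap with Sham.

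Eln encodes tropoelastin, the soluble subunit of elastin. It measured 9.25, 9.45, 9.46 and 9.51 in Sham replicates 1 to 4. In MI replicates 5 to 8 it measured 11.89, 10.04, 9.94 and 11.50. The Sham rats thus lay within 0.26 of each other and the MI rats within 1.95, all of them above Sham, with replicates 5 and 8 far above replicates 6 and 7. The group means were 9.42 ± 0.12 and 10.84 ± 1.00 (SD, n = 4 rats each), a 2.68-fold rise (log2 1.42, SE 0.27, adjusted p = 0.00320 from limma with both arrays and 0.240 on rat means). The largest of the 9 differences was this one. Eln was called without any single rat of the comparison (highest adjusted p = 0.0330), but not without MI replicates 5 and 8 together, where the difference was 0.57 (adjusted p = 0.238).

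Fbln5, fibulin-5, tethers elastin to microfibrils and to cell surface integrins. Its signal was 10.64, 10.26, 9.88 and 10.13 in Sham replicates 1 to 4 and 11.11, 10.43, 10.19 and 11.41 in MI replicates 5 to 8. MI replicates 6 and 7 lay within the Sham range, and replicates 5 and 8 above it. Fbln5 stood just outside the threshold, with a 1.47-fold higher mean (log2 0.55, SE 0.16, adjusted p = 0.0560 with both arrays and 0.414 on rat means). When Sham replicate 1 was left out it passed at an adjusted p of 0.0268, when MI replicate 6 was left out at 0.0201 and when MI replicate 7 was left out at 0.00246. Without MI replicate 8 its difference was 0.35 (adjusted p = 0.368), and without MI replicates 5 and 8 together 0.079 (adjusted p = 0.998).

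Fbn1, fibrillin-1, is the main structural protein of microfibrils. It measured 10.02, 9.98, 10.91 and 10.53 in Sham replicates 1 to 4, and 11.74, 10.89, 10.78 and 11.81 in MI replicates 5 to 8. Sham replicate 3 lay above MI replicates 6 and 7, so the groups overlapped. The rise was 1.93-fold (log2 0.94, SE 0.22, adjusted p = 0.0125 with both arrays and 0.298 on rat means). Leaving out Sham replicate 1 or 2 ended the call of Fbn1 (adjusted p = 0.0543 and 0.0701), and so did leaving out MI replicate 5 or 8 (0.0872 and 0.103).

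Mfap5 and Mfap2 encode the related microfibril-associated glycoproteins MAGP-2 and MAGP-1, which bind fibrillin. Mfap5 measured 10.27, 9.93, 10.53 and 10.50 in Sham and 12.14, 11.05, 10.86 and 11.89 in MI rats, in the order of their replicate numbers. Every MI rat was above every Sham rat. Mfap5 rose 2.26-fold (log2 1.17, SE 0.20, adjusted p = 0.00135 with both arrays and 0.211 on rat means), which was the smallest adjusted p of the 9 genes in either fit, and it passed without each rat in turn (highest adjusted p = 0.0165), but not without MI replicates 5 and 8 together (0.171). Mfap2 measured 8.38, 8.15, 8.28 and 8.36 in Sham and 8.39, 8.24, 8.15 and 8.52 in MI rats. The ranges of Mfap2 overlapped almost fully, and its difference of 0.032 had a 95% interval from -0.13 to 0.19 (adjusted p = 0.940). The arrays of a rat correlated at 0.973 for Mfap5 and at 0.443 for Mfap2, the dimmest of the genes.

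The 250 bases upstream of the annotated starts of these paired microfibril genes and of Loxl1 are shown, since Mfap5 and Loxl1 rose and Mfap2 did not pass. The sequences are from RefSeq, build GRCr8, written 5′ to 3′ on the strand of the gene. Capitals mark the letters CAGAC on either strand (read as CAGAC or GTCTG), a core bound by Smad proteins. The windows lie at chr4:157399669-157399918 (plus strand) for Mfap5, chr5:158597478-158597727 (plus strand) for Mfap2 and chr8:67612225-67612474 (minus strand) for Loxl1.
Mfap5: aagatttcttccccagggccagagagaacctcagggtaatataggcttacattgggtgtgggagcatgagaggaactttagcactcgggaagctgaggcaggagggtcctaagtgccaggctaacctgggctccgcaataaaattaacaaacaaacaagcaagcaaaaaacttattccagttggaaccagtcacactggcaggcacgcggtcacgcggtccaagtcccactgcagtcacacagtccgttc
Mfap2: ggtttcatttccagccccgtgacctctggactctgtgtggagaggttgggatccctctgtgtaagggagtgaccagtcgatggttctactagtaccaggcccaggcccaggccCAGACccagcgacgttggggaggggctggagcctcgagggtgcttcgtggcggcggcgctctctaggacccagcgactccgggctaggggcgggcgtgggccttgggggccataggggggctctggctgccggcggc
Loxl1: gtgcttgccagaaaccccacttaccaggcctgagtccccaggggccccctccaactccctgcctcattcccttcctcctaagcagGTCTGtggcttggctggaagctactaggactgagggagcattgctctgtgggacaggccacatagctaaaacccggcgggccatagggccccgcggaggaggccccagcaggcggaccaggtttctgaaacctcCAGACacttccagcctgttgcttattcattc
CAGAC occurred 0 times in the window of Mfap5, 1 time in that of Mfap2 and 2 times in that of Loxl1. A promoter was listed for 7 of the 10 genes, Efemp2 among them, and none for Eln, Mfap4 and Lox, which rose. Of the 7 windows, 5 held CAGAC (Fbn1, Fbln5, Mfap2, Ltbp2 and Loxl1), as did 42.9% of all 33469 windows of this length. The letters TGANTCA, the AP-1 motif, which reads alike on both strands, were in 0 of the 7 windows and in 6.34% of all. A match is a description of the letters and not a binding site.

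Mfap4 encodes a microfibril-associated protein with a fibrinogen-like domain. It measured 10.87, 10.94, 11.07 and 10.87 in Sham replicates 1 to 4 and 12.84, 11.51, 11.23 and 12.22 in MI replicates 5 to 8. The groups did not overlap, and the Sham rats were within 0.20 of each other. Mfap4 rose 2.02-fold (log2 1.01, SE 0.22, adjusted p = 0.00763 with both arrays and 0.271 on rat means). Leaving out MI replicate 5 or 8 ended the call by a small margin (adjusted p = 0.0551 and 0.0565).

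Ltbp2, a fibrillin-binding member of the latent TGF-beta binding protein family that does not itself bind latent TGF-beta, had the widest range of the 9 genes among MI rats and among MI+T4 rats. It measured 9.55, 9.78, 9.59 and 9.60 in Sham replicates 1 to 4. MI replicates 5 to 8 measured 12.23, 9.81, 9.67 and 11.90. MI replicates 6 and 7 were thus at the level of the Sham rats, while replicates 5 and 8 lay 2.60 and 2.27 above the Sham mean. The mean difference was 2.42-fold (log2 1.27, SE 0.42, adjusted p = 0.0961 with both arrays and 0.474 on rat means), the second largest of the 9, and did not pass. Leaving out MI replicate 6 or 7 brought it past the threshold (adjusted p = 0.0243 and 0.0121). The difference was 0.83 without MI replicate 5 (adjusted p = 0.494), 0.94 without MI replicate 8 (0.431) and 0.11 without both (0.998).

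Lox and Loxl1 encode lysyl oxidases, copper enzymes that oxidize lysines so that elastin, and for Lox also collagen, can be cross-linked. Lox measured 10.09, 10.15, 10.78 and 10.30 in Sham and 11.51, 10.85, 10.47 and 11.58 in MI rats, in the order of replicate number. Only MI replicate 7 lay below the highest Sham rat. Lox rose 1.70-fold (log2 0.77, SE 0.18, adjusted p = 0.0138 with both arrays and 0.304 on rat means). The brighter Loxl1 probe measured 10.37, 10.43, 11.24 and 10.79 in Sham and 12.14, 11.22, 11.03 and 12.03 in MI rats, so that Sham replicate 3 was above MI replicates 6 and 7. Loxl1 rose 1.86-fold by this probe (log2 0.90, SE 0.23, adjusted p = 0.0221 with both arrays and 0.346 on rat means) and 1.75-fold by the dimmer one (log2 0.81, SE 0.20, adjusted p = 0.0210 with both arrays and 0.329 on rat means). Neither gene passed without Sham replicate 1, Sham replicate 2, MI replicate 5 or MI replicate 8, with adjusted p from 0.0583 to 0.117 for Lox and from 0.0893 to 0.154 for Loxl1.

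**Figure D2:**
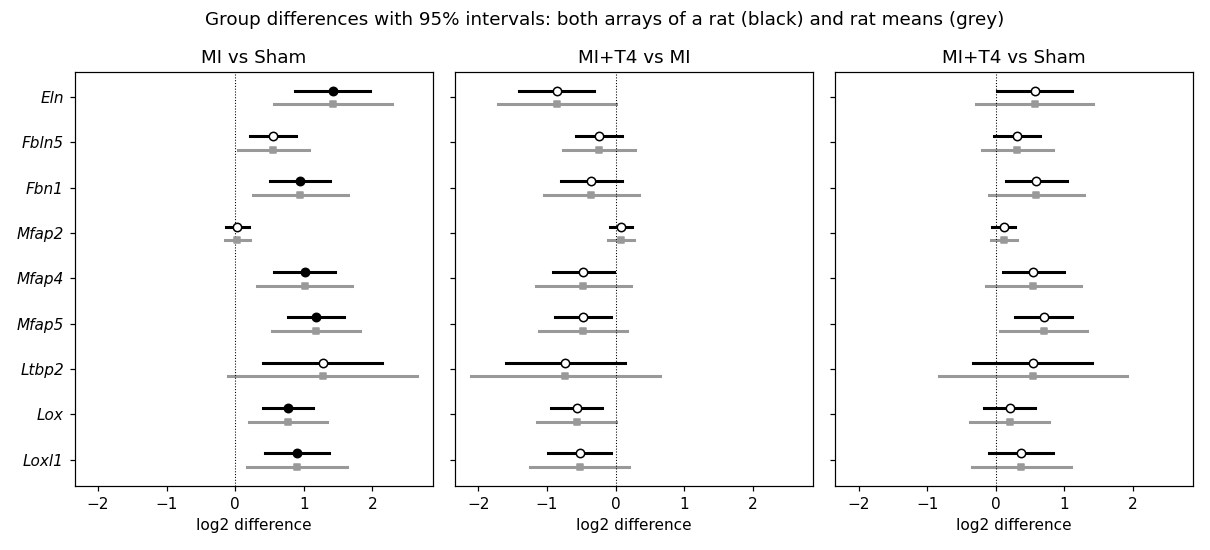
Difference between group means (log2, horizontal axis) of each gene in the 3 comparisons, with 95% intervals. Black circles and lines are the fit with both arrays of a rat, filled where the adjusted p is under 0.05, and grey squares and lines the fit on rat means. The filled circles are the 6 genes that rose in MI vs Sham, and the grey interval of Ltbp2 there runs from -0.10 to 2.65.

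The genes varied together from rat to rat. MI replicates 5 and 8 were the 2 highest MI rats for 9 of 9 genes, and MI replicate 7 was the lowest for 9 of 9. The median of the 9 genes lay 1.43 and 1.32 above the Sham mean in MI replicates 5 and 8, against 0.52 and 0.30 in replicates 6 and 7. Among MI+T4 rats, replicate 7 was highest for 7 genes, with a median of 1.19, and replicate 8 lowest for 8, with a median of -0.14. The 2 remaining MI+T4 rats, replicates 5 and 6, lay at 0.58 and 0.33. Between the 36 pairs of genes the correlation over 12 rats had a median of 0.88 (0.49 to 0.98), and 0.85 (0.39 to 0.99) after the group means were subtracted. These points share their libraries and their groups. The closest pair was Fbn1 and Loxl1 (r = 0.98), and Mfap2 and Fbln5 were the genes that least followed Fbn1, at r = 0.59 and 0.61.

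**Figure D3:**
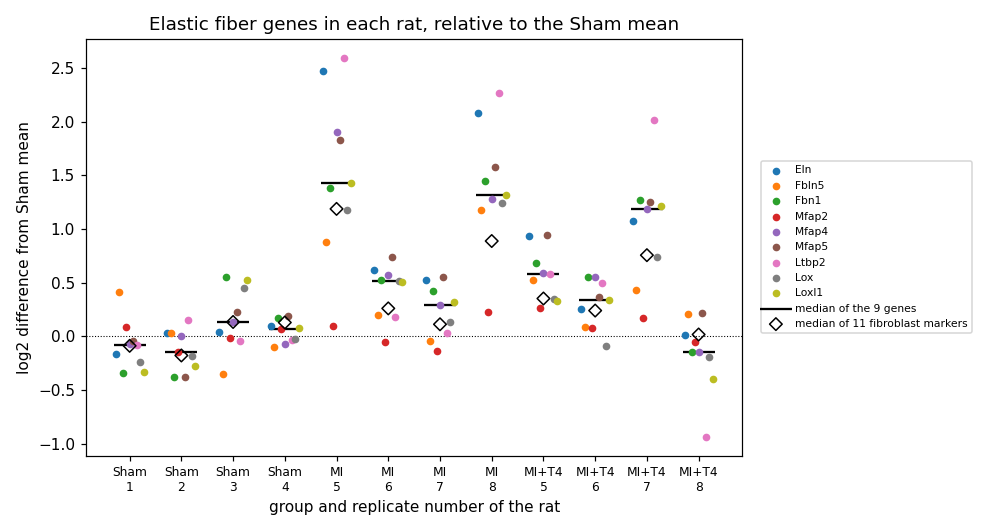
Difference of each gene from its Sham mean (log2, vertical axis) in each of the 12 rats, with 1 colour for each gene, a line at the median of the 9 genes and a diamond at the median of 11 fibroblast markers. The lines of MI replicates 5 and 8 and MI+T4 replicate 7 lie at 1.43, 1.32 and 1.19, and the diamonds at 1.19, 0.89 and 0.76.

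Fibroblast markers moved with the genes. Of 11 fibroblast markers, 6 rose after MI with both arrays in the fit (Pdgfra, Col3a1, Pi16, Cd248, Dpt and Gsn) and none fell, where 1.89% of all probes were called higher. On rat means none of the 6 passed, with adjusted p from 0.162 to 0.350. The median difference of the 11 markers was 0.66, and their summed signal ranged from 16.72 to 16.95 on the log2 scale in Sham, from 16.88 to 17.75 in MI and from 16.84 to 17.44 in MI+T4 rats. In MI replicates 5 and 8 the markers had a median of 1.19 and 0.89 over Sham, and in replicates 6 and 7 one of 0.26 and 0.11. Of 5 measured markers of activated fibroblasts 1 rose, the matrix protein Cilp (log2 1.14, adjusted p = 0.00164 with both arrays and 0.218 on rat means). In whole tissue, more fibroblasts and more RNA per fibroblast cannot be told apart. The part of this shift in the differences of the elastic fiber genes was not tested.

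Among the lists of markers of other cells, calls were found only for atrial genes. Of 6 measured smooth muscle markers 0 passed, with summed signals from 13.27 to 13.46 in Sham and from 13.34 to 13.66 in MI rats, and of 5 endothelial, 5 macrophage, 4 epicardial and 3 valve markers 0 passed. The valve markers Hapln1, Acan and Chad stood at percentiles 7.97, 62.2 and 63.2 of all probes. Of 6 measured atrial markers 3 rose, Nppa, Pam and Dkk3, where 1.89% of all probes were called higher. On rat means none of the 3 passed, with adjusted p from 0.162 to 0.222. Ventricular muscle under load also uses these genes, and which tissue gave the signal was not tested. The summed atrial signals ran from 13.63 to 15.49 in Sham, from 15.42 to 16.63 in MI and from 14.96 to 17.23 in MI+T4 rats. Myl7, the atrial myosin light chain, stood at percentile 97.4 and measured 14.28, 14.19, 9.29 and 9.68 in Sham, 14.67, 13.12, 11.09 and 14.13 in MI and 16.14, 12.44, 15.52 and 11.12 in MI+T4 rats, in the order of replicate number. Myl7 thus differed widely between rats of each group, and did not pass between MI and Sham (log2 1.39, SE 0.93, adjusted p = 0.581). Among Sham rats Myl7 was highest in replicates 1 and 2 and lowest in replicate 3. Sham replicate 3 was the highest Sham rat for 5 of the 9 elastic fiber genes and the lowest for 1. Among MI rats Myl7 was highest in replicates 5 and 8 and lowest in replicate 7. Among MI+T4 rats it was highest in replicate 5 and lowest in replicate 8. The median of the 6 atrial markers lay 0.55, 0.33, 0.34 and 0.72 above the Sham mean in MI replicates 5 to 8. In MI+T4 replicates 5 to 8 that median lay 0.51, 0.21, 0.75 and 0.29 above it. Bmp10, a further atrial gene, stood at percentile 56.8. The 8 measured ventricular myocyte markers lay between percentiles 81.4 and 99.99, and 0 of them passed. The part of the atrial markers in these results was not tested.

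The second question was whether T4 after MI moved these genes. With both arrays in the fit 0 of 9 passed between MI+T4 and MI, where 0% of all probes were called in either direction. The MI+T4 mean lay below the MI mean for 8 of 9 genes, Mfap2 being the exception, while 51.9% of all probes had a higher mean in MI+T4, and the median difference was -0.48 against 0.0025 over all probes. Unadjusted p-values were under 0.05 for 5 genes, Eln, Mfap4, Mfap5, Lox and Loxl1, all lower in MI+T4, as for 3.68% of all probes in that direction. Loxl1 counts here by its brighter probe, and the dimmer one had an unadjusted p of 0.0604 from limma with both arrays. On rat means 0 of 9 had an unadjusted p under 0.05, against 2.46% of all probes in the lower direction. In 0 of 9 genes did the 4 rats of MI+T4 all lie below those of MI, which 1.36% of all probes did. The MI rats enter this comparison and that with Sham, so a high mean of MI appears in both. The fibroblast markers had a median difference of -0.32 between MI+T4 and MI. They ran from -0.66 for Col1a1 to 0.20 for Gsn, and Pdgfra was also above 0 (0.011). The activated fibroblast markers had a median of -0.26, with Meox1 above 0 (0.012). In either list 0 were called, and the part of these markers in the values of the 9 genes was not tested.

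Eln measured 10.35, 9.67, 10.49 and 9.43 in MI+T4 replicates 5 to 8. All of these lay below MI replicates 5 and 8, and replicates 6 and 8 also below MI replicates 6 and 7. The MI+T4 mean of 9.99 ± 0.52 was 0.553 times the MI mean (log2 -0.86, SE 0.27, 95% interval -1.40 to -0.31), with an adjusted p of 0.322 from limma and 0.889 on rat means. The interval of Eln on rat means ran from -1.71 to 0.0011. Lox measured 10.68, 10.24, 11.07 and 10.13 in MI+T4 rats, 0.675 times the MI mean (log2 -0.57, SE 0.18, 95% interval -0.93 to -0.20, adjusted p = 0.326 with both arrays and 0.889 on rat means). The interval of Lox on rat means ran from -1.14 to 0.0076. Eln and Lox were called lower without MI replicate 7 (adjusted p = 0.0395 and 0.0362). That rat was the lowest MI rat for 9 of 9 genes, so leaving it out raises the MI means, and these calls add no separate support. The share of all probes called in that fit is not given here. With MI replicate 5 left out, Eln differed by -0.51, and with MI replicate 8 left out as well by -0.0029. Without MI replicates 5 and 8 together the differences of Fbn1, Fbln5, Mfap4, Mfap5 and Ltbp2 were above 0.

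With both arrays in the fit, the remaining genes had intervals that reached closer to 0 or beyond it. On rat means the intervals of all these genes included 0, with -1.12 to 0.16 for Mfap5 and -1.16 to 0.22 for Mfap4. Mfap5 measured 11.26, 10.68, 11.56 and 10.53 in MI+T4 rats (difference from MI -0.48, 95% interval -0.89 to -0.068) and Mfap4 measured 11.53, 11.49, 12.12 and 10.79 (-0.47, 95% interval -0.91 to -0.024). Fbn1 differed from MI by -0.35 (95% interval -0.80 to 0.091), Fbln5 by -0.24 (-0.58 to 0.097) and Mfap2 by 0.083 (-0.080 to 0.25). Loxl1 differed by -0.52 (-0.99 to -0.061) by its brighter probe and by -0.39 (-0.81 to 0.018) by the dimmer one. The range of Ltbp2 was widest here as well, with 10.21, 10.13, 11.65 and 8.70 in MI+T4 replicates 5 to 8. Replicate 8 was below every Sham rat. Replicates 5, 6 and 7 were above all of the Sham rats and above MI replicates 6 and 7. The difference of the Ltbp2 means between MI+T4 and MI was -0.73 (95% interval -1.60 to 0.13).

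Compared with Sham, the infarcted hearts given T4 had higher means for 9 of 9 genes, as for 48.7% of all probes, but 0 of 9 passed, where 0.719% of all probes were called higher and 0.537% lower. The median difference was 0.54. Mfap5 was nearest to the threshold with a 1.62-fold higher mean (log2 0.70, SE 0.20, adjusted p = 0.0886 with both arrays and 0.605 on rat means), with MI+T4 replicate 8 (10.53) at the level of the 2 highest Sham rats. The folds over Sham were 1.51 for Fbn1 (log2 0.59, SE 0.22, adjusted p = 0.245), 1.48 for Eln (log2 0.57, SE 0.27, adjusted p = 0.454) and 1.15 for Lox (log2 0.20, SE 0.18, adjusted p = 0.843). On rat means the adjusted p of Fbn1, Eln and Lox was 0.706, 0.796 and 0.897. Without MI+T4 replicate 8, 3 genes passed: Fbn1 (adjusted p = 0.0237), Mfap4 (0.0437) and Mfap5 (0.0216). That rat was the lowest of its group for 8 of the 9 genes, so leaving it out raises the MI+T4 means, and these calls add no separate support. The share of all probes called in that fit is not given here. Of the 11 fibroblast markers 4 rose between Sham and MI+T4 (Pdgfra, Pi16, Cd248 and Gsn), with a median difference of 0.34 over the list and adjusted p from 0.139 to 0.479 for the 4 on rat means, where none passed. The part of these markers in the values of the 9 genes was not tested. The same Sham rats serve as the reference here and for MI, so the values of the comparisons are not independent.

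Some of the genes that act beside the elastic fiber also rose. Of 45 related genes 31 had a probe, and 7 of these rose after MI with both arrays in the fit, none fell and 24 did not pass, where 1.89% of all probes were called higher, with a median difference of 0.15. Of the cross-linking and copper supply genes 2 of 6 rose, Loxl2, a further lysyl oxidase (1.62-fold, log2 0.70, SE 0.14, adjusted p = 0.00556), and Bmp1, a protease that activates Lox and trims procollagens (1.31-fold, log2 0.39, SE 0.098, adjusted p = 0.0215). Loxl2 was called without each rat in turn (highest adjusted p = 0.0401). Atp7a, the copper pump that loads lysyl oxidases, and the copper chaperone Atox1 differed by 0.0081 and -0.028 and did not pass.

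Of 3 TGF-beta ligands, Tgfb2 (1.64-fold, log2 0.71, SE 0.18, adjusted p = 0.0215) and Tgfb3 (1.45-fold, log2 0.54, SE 0.14, adjusted p = 0.0280) rose, and Tgfb1 was at 0.24 (adjusted p = 0.442). Ltbp4, which anchors latent TGF-beta and assists elastin assembly, rose 1.35-fold (log2 0.43, SE 0.11, adjusted p = 0.0222), with Ltbp1 at 0.44 (adjusted p = 0.188). Fbln1, a fibulin of basement membranes and elastic fibers, rose 1.45-fold (log2 0.54, SE 0.14, adjusted p = 0.0257) as 1 of 6 measured fibulins, fibrillins and EMILINs. Itgb5, an integrin chain that pairs with the alpha v chain, rose 1.32-fold (log2 0.40, SE 0.095, adjusted p = 0.0167) as 1 of 4 integrins. On rat means none of the 7 passed, with adjusted p from 0.240 to 0.353. With both arrays all except Loxl2 lost the call without MI replicate 5 or MI replicate 8, and each of these also without 1 to 3 of the Sham rats. Without MI replicate 5 the difference was 0.25 for Bmp1 and 0.33 for Tgfb3.

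Of 8 proteases able to degrade elastin 0 passed after MI, with a median difference of 0.011. The cysteine protease Ctss was at 0.45 (adjusted p = 0.179) and Ctsl at 0.24 (adjusted p = 0.0745). Ctsl rose 1.22-fold over Sham in MI+T4 rats (log2 0.29, SE 0.074, adjusted p = 0.0498 with both arrays and 0.433 on rat means), the 1 related gene called there, and did not pass without any of 6 of the 8 rats of that comparison (highest adjusted p = 0.280). Of the 2 measured ADAMTS-like genes 0 passed. Between MI+T4 and MI 0 of the 31 related genes passed.

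**Figure D4:**
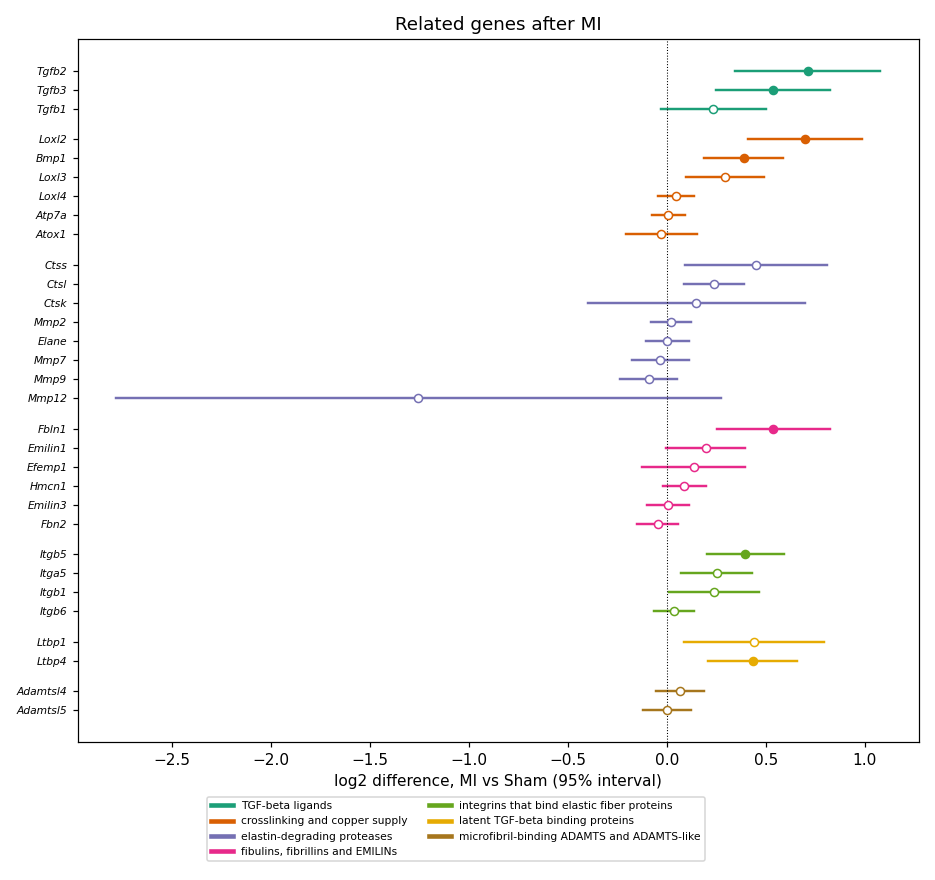
Difference between MI and Sham (log2, horizontal axis) of the 31 measured related genes with 95% intervals from the fit with both arrays, coloured by group and filled where the adjusted p is under 0.05. The filled points are the 7 genes that rose, from Bmp1 at 0.39 to Tgfb2 at 0.71, and the interval of Mmp12 is the widest.

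The genes whose rat means followed Eln most closely, of 13328 named genes outside the group, were Pmp22 (r = 0.98), Cers5 (0.98), Mxra8 (0.98), Loxl2 (0.97) and Trh (0.97). Without MI replicates 5 and 8, which lay farthest from the median of Eln, these correlations were 0.95, 0.94, 0.93, 0.92 and 0.93 over 10 rats. Those closest to Fbn1 were Anxa2 (r = 0.98), Serping1 (0.97), Necap2 (0.97), Tuba1b (0.96) and Col15a1 (0.96), and their correlations after group means were subtracted ran from 0.94 to 0.98. All are over 12 rats and were picked for their size, so they describe these libraries.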

How the data were processed

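Per the labels, RNA of the non-infarcted left ventricle of 12 rats (4 per group) was hybridized to 24 arrays, technical replicates 1 and 2 of each rat. The study placed its technical replicates on 2 BeadChips, but the labels give only the replicate number. The authors had already stabilized the variance with a transform near log2 and aligned the arrays with robust splines. The deposited values (6.88 to 16.47) are read as log2. Versions of their tools are not given in the sources used here. A table of 48 columns with non-normalized signals and detection values was not used, because its columns carry BeadChip positions that nothing pairs with a sample, so no filter on detection was applied.

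Probes were named through the array annotation, with current symbols from RefSeq genes (GRCr8), for 13793 probes, while 8730 had no symbol. A gene is given by its probe with the highest mean. In limma 3.58.1 (statmod 1.5.0, R 4.3.3), 3 group means were fitted with the rat as block (duplicateCorrelation) and eBayes, and p-values were adjusted by Benjamini-Hochberg over all probes of a comparison at 5%. The named genes are the members, the related genes called (at most 8 per comparison) and the 5 closest to Eln and to Fbn1. The members and lists were chosen with earlier results of these data known, and several were listed by the study on these samples. Alternatives were rat means, the 2 compared groups alone, a trended and robust prior, the technical replicate number as a term, each technical replicate alone, only probes whose highest value is above the median of all (50% of them), nested F, leaving out single rats, blocking on the replicate number and, added after seeing the data, MI replicates 5 and 8 left out together. The scripts were tested on simulated data. Nothing in the labels ties rats to litters or cages. The number of rats limits the precision. Plots were made in matplotlib 3.10.9 (Python 3.11.15).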

Additional observations from a re-analysis of the deposited data

Results flagged for a closer look

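In 30 groups of 4 rats (10 probes in 3 groups), no highest or lowest rat lay apart from the other 3 beyond the 95% limit of Dixon's test. That test looks at a single rat, and among MI rats the 2 highest values lay together.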

How the results depend on the processing

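Between MI and Sham, 6 of 9 genes passed with both arrays in the fit. The number was 0 on rat means, 0 with the arrays of technical replicate 1 alone, 0 with those of technical replicate 2 alone and 0 without MI replicates 5 and 8 together. With each rat left out it ran from 2 (without MI replicate 5 or MI replicate 8) to 8 (without MI replicate 6 or MI replicate 7), with 3 without Sham replicate 2. The share of all probes called shifted in the same fits. It was 3.61% with all rats, 1.1% and 0.857% without MI replicate 5 or 8, and 5.55% and 6.99% without MI replicate 6 or 7. Without Sham replicate 2 it was 1.91%, and without MI replicates 5 and 8 together 0.138%. On rat means and with technical replicate 1 alone it was 0%, and with technical replicate 2 alone 0.0133%. The number of the 9 genes called was 5 with a trended and robust prior, where Loxl1 did not pass (adjusted p = 0.0619), 5 by nested F, and 6 with the 2 groups alone, the technical replicate number as a term or the 50% of probes kept by the filter on low values. The direction held for all of these genes except Mfap2, whose difference was -0.085 with technical replicate 2 alone, -0.098 without MI replicates 5 and 8 together and between -0.032 and 0.089 with each rat left out. Between MI+T4 and MI the number was 0 under all alternatives except without MI replicate 7, so that it ran from 0 to 2. MI replicate 7 was the lowest MI rat for 9 of 9 genes, so leaving it out raises the MI means. For the comparisons of MI+T4 the shares of all probes called with a rat left out are not given here. Without MI replicates 5 and 8 together, the difference between MI+T4 and MI was above 0 for Fbn1 (0.12), Fbln5 (0.24), Mfap4 (0.11), Mfap5 (0.053) and Ltbp2 (0.43). Between MI+T4 and Sham the number was 0, with 1 in a fit of the 2 groups alone (Mfap5), 1 by nested F and 0 to 3 with each rat left out. The cause of these shifts was not tested. Fits on rat means or single technical replicates hold fewer values. The fit with both arrays sets the correlation within a rat to 0.243, where the 9 genes had a median of 0.975. MI and MI+T4 rats share the replicate numbers 5 to 8, which come from different animals. The deviations of same-numbered rats correlated at 0.11, 0.25, -0.53 and -0.48 over all probes. With 4 rats per group these values cannot exclude a pairing, but the study states that rats were assigned to the groups at random. With the replicate block 0 of 9 genes passed, as without it, where 0 of all probes were called on rat means without the block.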

Other observations

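Mmp12, the macrophage elastase, had the widest spread of the related genes, and most of it was among the Sham rats, whose signals ran from 7.70 to 13.24. Its group means were 10.06 ± 2.73 (SD, n = 4 rats) in Sham, 8.80 ± 1.59 after MI, and 8.07 ± 0.56 for MI+T4, and the difference between MI and Sham did not pass (log2 -1.26, SE 0.75, adjusted p = 0.498 from limma). It was named after its values were seen.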
